A study of Sus scrofa domesticus with 150 samples.

Results

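The late wound edge is the rim of a healing pig skin wound on days 15, 16, 19 and 21 after wounding, and it is set here against the rim of wounds taken on days 5, 6 and 7. The members were chosen by the day and location given in the sample labels, which put 12 edge samples in the late group and 18 in the group of days 5 to 7, out of 150 samples in the series. The study followed full-thickness excisional wounds on the backs of female domestic pigs of a Yorkshire mix and took biopsies for RNA-seq from the edge and the center of each wound. The wounds were covered with a non-adherent pad and a transparent film dressing, and apart from a topical antibiotic put on biopsied sites no treatment was given, so both groups hold the same kind of animal and the same care. All 6 animals contributed to both groups, but not on the same days. Animals 1323, 1324 and 1325 gave days 5, 7, 15 and 21, and animals 1326, 1327 and 1328 gave days 6, 16 and 19. On days 5, 6 and 7 each animal gave 2 wounds and on each late day 1 wound, D on days 15 and 16 and I on days 19 and 21. No wound position of the late days was also used on days 5, 6 or 7, so time and position on the back cannot be told apart, and neither can the day and the set of 3 animals. The 6 pieces of skin excised on day 0, 1 per animal, serve as unwounded background.

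In skin repair an early phase of inflammation, driven by neutrophils and macrophages, overlaps with the spread and division of keratinocytes and with new dermal tissue rich in vessels. Later the epidermis returns to its layered differentiation and fibroblasts replace and remodel the provisional matrix with fibrillar collagen. The edge is where new epidermis grows out from intact skin, so a biopsy of it holds epidermis, dermis and cells that have moved in.

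In the 30 edge libraries the total count lay between 14191248 and 20502572, with medians of 17766739 for days 5 to 7 and 17284858 for the late days. Defining genes of keratinocytes, fibroblasts and vessels were present in every edge sample, with KRT5 at 2710 CPM or more, COL1A1 at 7150 CPM or more and PECAM1 at 218 CPM or more. The summed level of the 12 skeletal muscle genes in the table was 2401 CPM in the day 15 sample of animal 1325 and 305 CPM in 1 day 6 sample of animal 1328, wound K, against 7.12 to 22.8 CPM in the other 28. Levels are given as CPM, read counts relative to the library total after scaling between libraries with TMM, a method that sets the bulk of genes level. CPM values are not divided by gene length, so they compare samples and not genes. Fold changes are log2 values of late over days 5 to 7 with their standard error, and adjusted p comes from the quasi-likelihood test of edgeR, corrected by Benjamini-Hochberg across the 14717 genes that passed a filter on low counts, out of 30461 in the table. A gene is called changed where adjusted p was below 0.05.

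The late edge differed from the edge of days 5 to 7 in 6758 of 14717 genes, which is 45.9% of those tested. Of these 3417 were higher (23.2%) and 3341 lower (22.7%), and the change was at least 2-fold for 746 higher (5.07%) and 598 lower (4.06%) genes. In 42 genes (0.285%) every late sample lay above every sample of days 5 to 7, and in 139 genes (0.944%) every late sample lay below. With so many genes called, the shares above are the background for every list that follows. Without TMM, where only the library total scales a sample, the split was 1711 higher and 5666 lower genes and the median of all genes was −0.17 instead of 0.02. In both groups the 3 main fibrillar collagen transcripts, COL1A1, COL3A1 and COL1A2, took a large share of all counts, 5.11% ± 2.05 (SD, n = 18) on days 5 to 7 and 12.7% ± 3.36 (SD, n = 12) late.

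**Figure D1:**
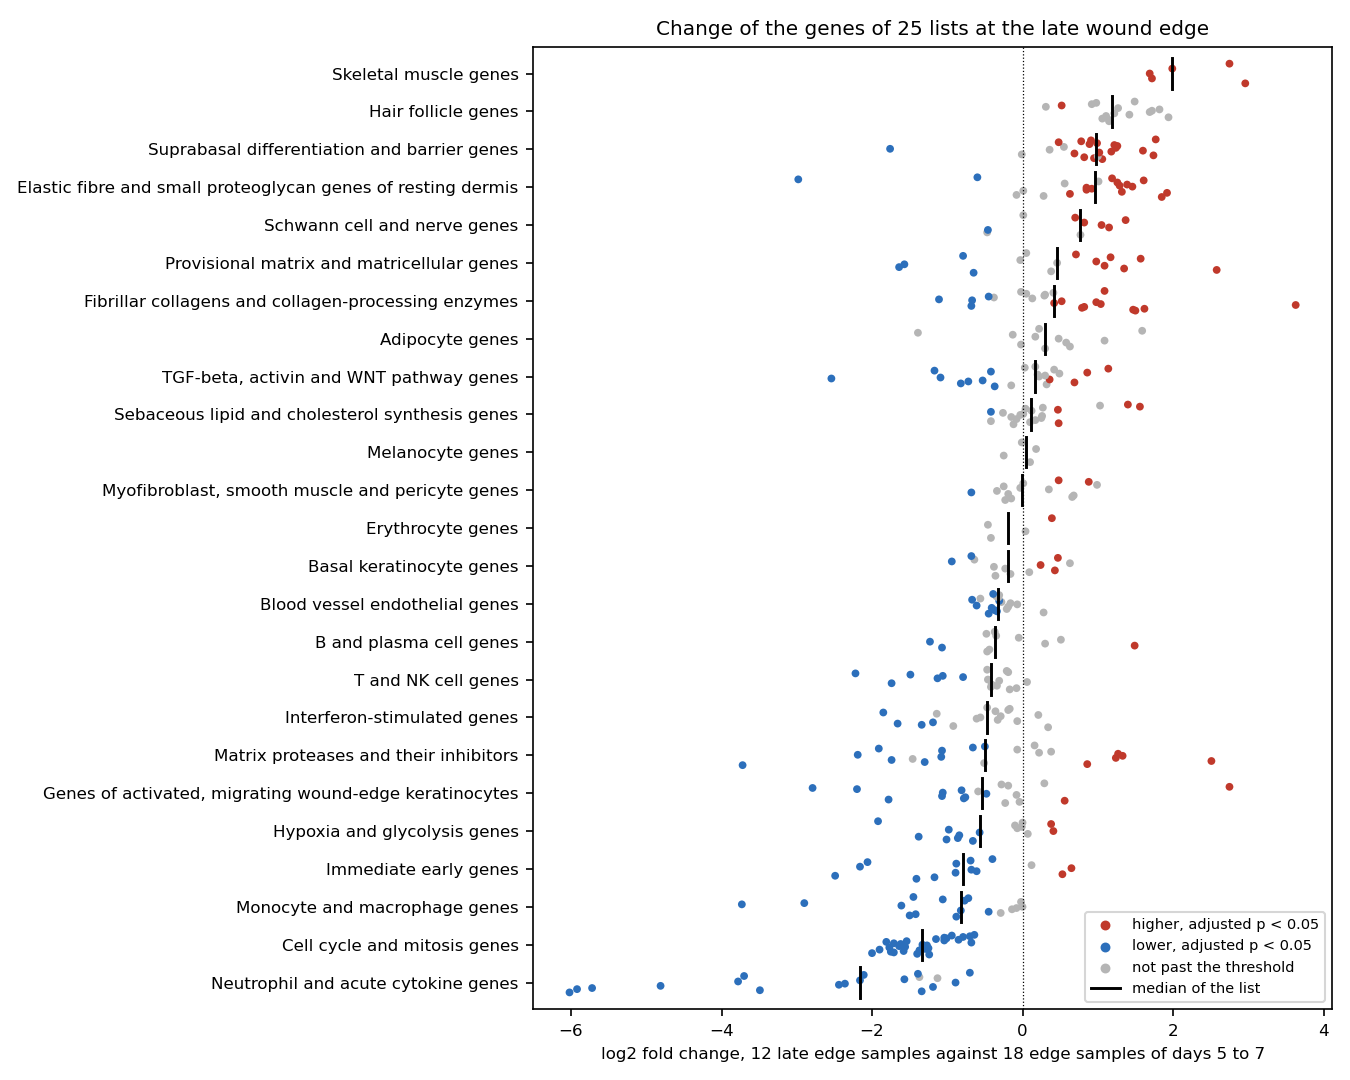
Each point is 1 gene of 25 lists, placed by its log2 fold change between 12 late edge samples and 18 edge samples of days 5 to 7 on the horizontal axis; red or blue points passed the threshold upward or downward, grey ones did not, and a black bar marks the median of the list. Cell cycle and acute inflammation genes lie to the left of 0, and the genes of epidermal differentiation and of mature dermis lie mostly to the right.

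The largest falls at the late edge were in signals of acute inflammation. Among the 19 tested genes of neutrophils and early cytokines 17 fell, none rose and the median log2 change was −2.16, against 22.7% of all genes falling. IL1B, an early cytokine that starts the inflammatory cascade, had 1.91 to 210 CPM with a median of 20.7 on days 5 to 7 and 0 to 4.84 CPM with a median of 0.214 late (−6.02 ± 0.89, adjusted p = 3.04e-06), and its late counts were only 0 to 75 reads. CXCL8, which draws neutrophils, went from 117, 424 and 3250 CPM (lowest, median and highest) to 0.712, 6.30 and 81.6 CPM, a change of −5.92 ± 0.81 (adjusted p = 1.09e-06). The groups did not overlap for CXCL8, while the highest late IL1B sample, from animal 1326 on day 19, lay within the range of days 5 to 7.

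CXCL2, another neutrophil attractant, fell by 5.72 on the log2 scale (adjusted p = 1.25e-07), from 31.8 to 1380 CPM down to 1.70 to 19.6 CPM. Also among the 8 largest falls of called genes at 5 CPM or more on days 5 to 7 were GPR84, a fatty acid receptor of myeloid cells (−6.24 ± 0.76), MCEMP1, a membrane protein of myeloid cells and mast cells (−5.16 ± 0.76), and the macrophage chemokine CCL3 (−5.01 ± 0.65). IL11, a stromal cytokine of the IL-6 family (−4.93 ± 0.72), and CSF3, the growth factor of granulocytes (−4.81 ± 0.72), complete these 8. Several of these are close to absent late, where the median was 1.59 CPM for GPR84, 0.125 CPM for MCEMP1 and 0.360 CPM for CSF3. OSM, a leukocyte cytokine that acts on keratinocytes, fell by 3.78 (adjusted p = 1.49e-07). S100A8, a calcium-binding protein of neutrophils and of stressed keratinocytes, changed by −1.57 ± 0.63 (adjusted p = 0.0406), and this call was lost without any 1 of 9 of the late samples and without any 1 animal but 1326, while its partner S100A9 did not pass (−1.13, adjusted p = 0.16). All these are bulk tissue values, in which fewer cells of a type and less RNA per cell cannot be told apart.

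Macrophage genes fell in part. Of 17 tested 12 fell and none rose, with a median of −0.82. MARCO, a scavenger receptor, went from 2.36, 6.83 and 28.2 CPM to 0.389, 0.528 and 1.53 CPM (−3.73 ± 0.42, adjusted p = 5.01e-08) with no overlap between the groups. SPP1, the secreted protein osteopontin that inflammatory macrophages make, fell by 2.90 (adjusted p = 7.77e-05), and MSR1, another scavenger receptor, by 1.61 (adjusted p = 1.72e-06). CD163, a haemoglobin receptor of tissue macrophages, fell by 1.5 and the general marker CD68 by 0.88 (adjusted p = 0.000257). The complement subunit genes C1QA, C1QB and C1QC, also macrophage products, stayed within −0.14 to 0.00 and did not pass, so the list did not move as a block.

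Lymphocyte lists moved less. Among 17 T and NK cell genes 6 fell and none rose (median −0.42), and the T cell receptor subunit CD3E had 4.77, 7.73 and 16.0 CPM on days 5 to 7 and 2.61, 6.46 and 17.1 CPM late (−0.17 ± 0.25, adjusted p = 0.595). The genes that fell included CCL5, a chemokine of activated T cells (−2.22, adjusted p = 2.76e-05), CD8B, a co-receptor of killer T cells (−1.74, adjusted p = 4.08e-05) and PRF1, the pore-forming protein of killer cells (−1.06, adjusted p = 0.000169). Of 11 B and plasma cell genes 1 rose and 2 fell: JCHAIN, which joins secreted antibodies, rose by 1.49 ± 0.36 (adjusted p = 0.00118), CD79A, part of the B cell receptor, changed by −0.47 (adjusted p = 0.224), and PAX5, a B cell transcription factor, by −1.23 (adjusted p = 0.0324, lost without animal 1324, 1326 or 1328). Among 17 genes of the interferon response 4 fell and none rose (median −0.47), where 22.7% of all genes fell and 23.2% rose. The share of falls in this list was thus close to that of all genes. Those that fell included IFIT2 (−1.66, adjusted p = 0.000771) and MX2 (−1.34, adjusted p = 0.00251). The MX2 call was lost without animal 1324 (−0.64). Within animals 1323 to 1325 the interferon list had 6 genes lower and none higher, with a median of −1.09, where 18.1% of all genes tested were higher and 19.3% lower. In animal 1324 its summed level was 2033 to 3897 CPM on days 5 and 7 and 788 and 520 CPM on days 15 and 21. In animals 1323 and 1325 the summed level overlapped between the periods, at 821 to 1885 CPM and 596 to 1556 CPM. Within animals 1326 to 1328 the interferon list had 3 higher and none lower, with a median of 0.56, where 10.3% of all genes were higher and 12% lower. For ISG15, an interferon-induced modifier, the change was 0.34 over all animals (adjusted p = 0.612), and the difference in its change between the sets of animals did not pass the test (3.37 ± 0.97, adjusted p = 0.15).

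**Figure D2:**
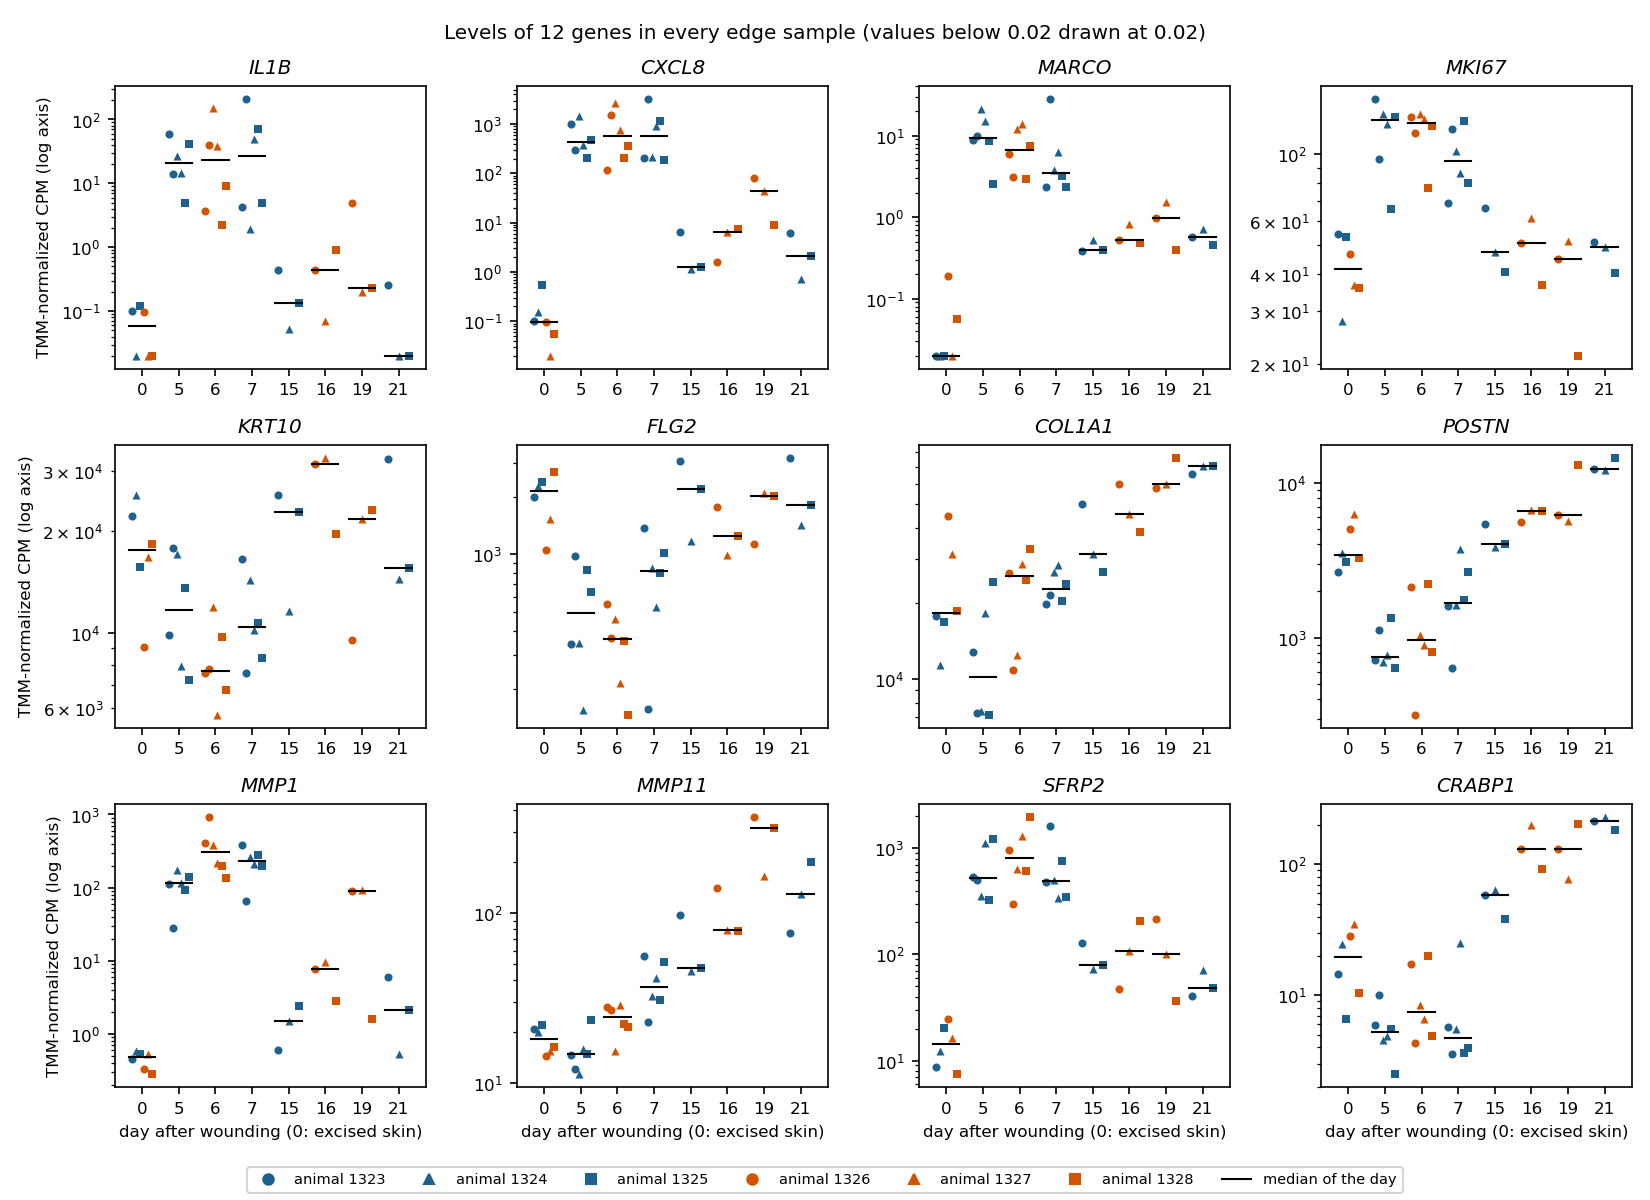
Each point is 1 library and shows the TMM-normalized CPM (log axis) of 1 of 12 genes by day after wounding, with day 0 the excised skin; symbols and colors mark the 6 animals and a line the median of the day, and values below the lower end of the scale are drawn at it. CXCL8 and MARCO show no overlap between days 5 to 7 and the late days, POSTN and CRABP1 lie higher on every late day, and MMP1 lies at 88.8 and 93.6 CPM in 2 of the day 19 samples.

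Genes of cell division were lower at the late edge without exception in the list. All 29 tested members fell, with a median of −1.33. CCNB1, the cyclin that drives entry into mitosis, went from 35, 68.0 and 91.1 CPM to 10.2, 16.0 and 20.0 CPM (−2.0 ± 0.14, adjusted p = 4.34e-11), a 4.01-fold fall with no overlap, and the late range overlaps the 11.7 to 15.6 CPM of excised skin. MKI67, the general marker of cycling cells, fell by 1.24 ± 0.14 (adjusted p = 3.82e-08) from a median of 123 to 48.2 CPM. Genes of mitosis such as PLK1, a mitotic kinase (−1.90), and UBE2C, which helps to destroy cyclins (−1.81), fell by more than the replication helicase subunits MCM2 (−0.85) and MCM7 (−0.70), though the difference between them was not tested. On day 16 27 of the 29 fell, and on each of days 15, 19 and 21 all 29 did.

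Genes of the differentiated epidermis rose. Of 22 tested 17 rose, 1 fell and the median was 0.97, against 23.2% of all genes rising. KRT10, the keratin of the layers above the basal one, had 5710, 9760 and 17700 CPM on days 5 to 7 and 9530, 22200 and 32700 CPM late (1.06 ± 0.19, adjusted p = 4.49e-05), with excised skin at 9080, 17500 and 25400 CPM. The groups overlapped for KRT10, and 8 of the 12 late samples lay above every sample of days 5 to 7. FLG2, a filaggrin-like protein of the horny layer, rose 3.34-fold (1.74 ± 0.29, adjusted p = 1.37e-05). CASP14, a protease of the horny layer, rose by 1.60 ± 0.26 and ALOXE3, a lipoxygenase that makes the lipid barrier, by 1.22 ± 0.20 (adjusted p = 1.04e-05 and 1.01e-05). ASPRV1, a protease that processes filaggrin, rose by 1.77 and the desmosomal DSC1 by 1.02. TGM3, a cross-linking transglutaminase, was the single member that fell (−1.76 ± 0.32, adjusted p = 5.81e-05), from 166, 463 and 2020 CPM to 93.2, 184 and 294 CPM. IVL, involucrin of the cell envelope, did not pass (−0.01, adjusted p = 0.988).

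Of 12 basal keratinocyte genes 3 were higher and 2 lower, with a median of −0.20, where 23.2% of all genes rose and 22.7% fell. The counts of this list were thus close to the shares of all genes. KRT5, the basal keratin, had a median of 7100 CPM on days 5 to 7 and 4810 CPM late (−0.36 ± 0.19, adjusted p = 0.121); with the animal as a block it passed (−0.48, adjusted p = 0.0324), as it did without TMM (−0.57, adjusted p = 0.00893) and without animal 1326 (−0.52). CDH3, the cadherin of basal cells, fell by 0.94 ± 0.24 (adjusted p = 0.00172), whereas TFAP2A, an epidermal transcription factor, rose by 0.47 ± 0.15 (adjusted p = 0.00856), a call lost without TMM (0.28) and without animal 1327 (0.33). Without TMM, which moves all genes downward, 1711 of 14717 genes were higher and 5666 lower. In that fit this list had none higher and 6 lower with a median of −0.44. Within animals 1323 to 1325 it had 1 higher and 7 lower, against 18.1% and 19.3% of all genes, and within animals 1326 to 1328 it had 3 higher and none lower, against 10.3% and 12%.

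Of 18 tested genes of the activated, migrating epidermis 9 fell and 2 rose, with a median of −0.54. ITGA5, a fibronectin receptor, fell by 1.07. Ligands of the epidermal growth factor receptor went both ways. AREG fell from 5.84, 17.5 and 78.7 CPM to 0.999, 3.02 and 5.59 CPM with no overlap (−2.79 ± 0.34, adjusted p = 1.73e-07), and HBEGF fell by 2.20 (adjusted p = 4.06e-07). EREG, also a ligand of this receptor, rose from 4.73, 20.6 and 34.4 CPM to 26.8, 128 and 296 CPM (2.75 ± 0.33, adjusted p = 1.52e-07), and 10 of 12 late samples lay above all samples of days 5 to 7.

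The wound keratins KRT6B and KRT6C, which keratinocytes switch on after injury, spread widely among the late samples. KRT6B had 357, 874 and 1890 CPM on days 5 to 7 and 14.4, 243 and 3680 CPM late, so the late samples lay both below and above the earlier range, and the overall change did not pass (−0.23 ± 0.52, adjusted p = 0.739). With the animal as a block KRT6B was lower (−1.80, adjusted p = 0.0122), as was KRT6C (−1.84, adjusted p = 0.00932, against −0.04, adjusted p = 0.96, without it). On days 15 and 21 KRT6B stood at 125 ± 99.5 and 70.6 ± 68.2 CPM (mean ± SD, n = 3 each), changes of −2.95 (adjusted p = 0.00328) and −3.76 (adjusted p = 0.000667). On days 16 and 19 it stood at 1770 ± 1670 and 1350 ± 1000 CPM (n = 3 each), and neither day passed (0.85 and 0.47, adjusted p = 0.267 and 0.554). The order by day is also the order by animal: days 15 and 21 came from animals 1323 to 1325 and days 16 and 19 from animals 1326 to 1328. The change differed between these sets for KRT6B (3.82 ± 0.73, adjusted p = 0.0203) and KRT6C (3.80 ± 0.73, adjusted p = 0.022) in a comparison added after the values had been seen. KRT6B and KRT6C are close paralogs, and how reads that fit both were counted is not given, so their values are not independent.

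**Figure D3:**
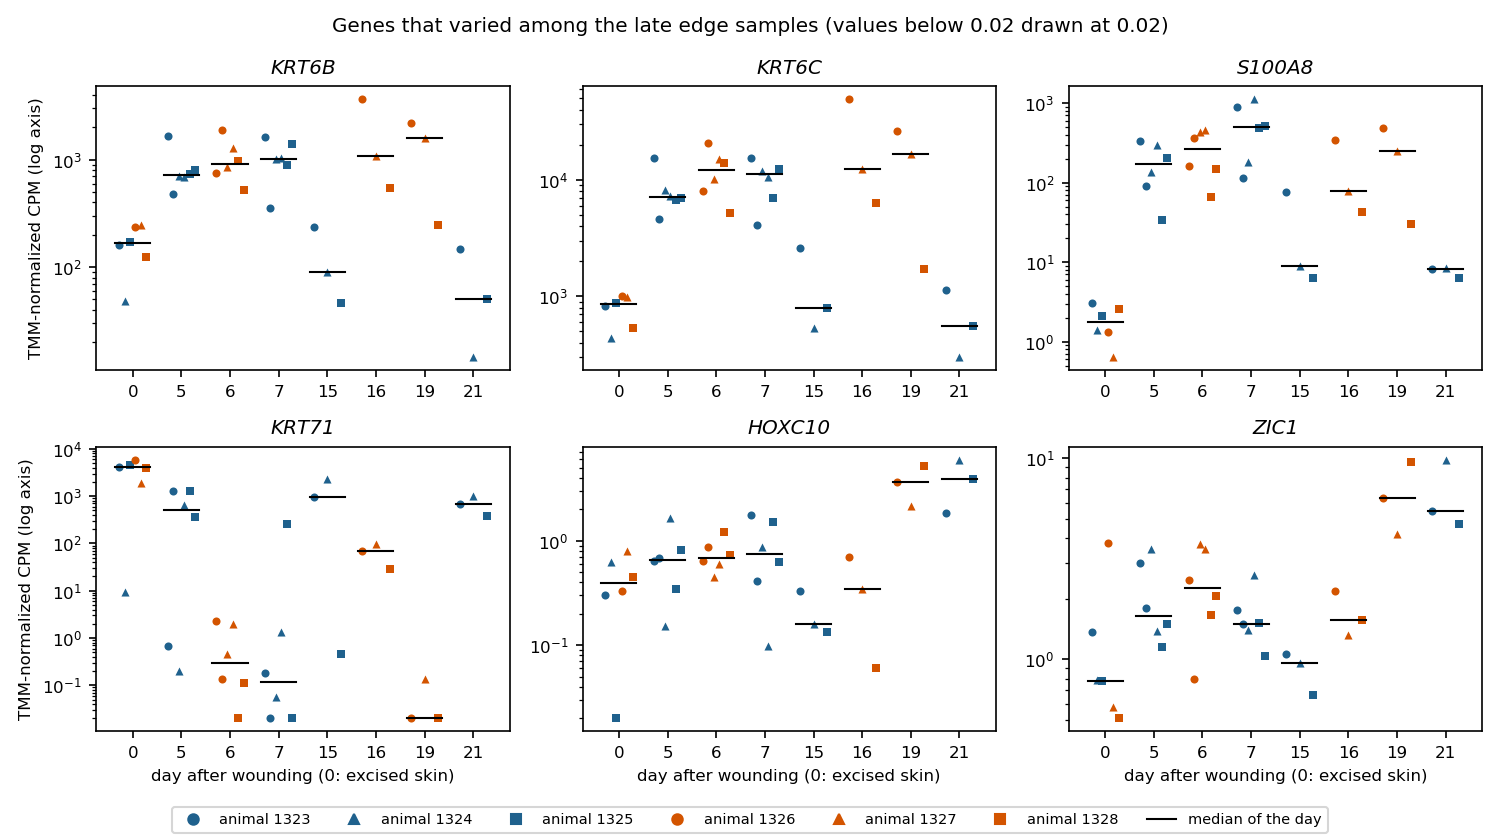
Each point is 1 edge library and shows the TMM-normalized CPM (log axis) of 6 genes by day, with day 0 the excised skin; symbols and colors mark the animals and a line the median of the day, and values below the lower end of the scale are drawn at it. The medians of KRT6B, KRT6C and S100A8 lie higher on days 16 and 19 than on days 15 and 21, though for S100A8 the change did not pass the test between the sets of animals (3.81, adjusted p = 0.135), KRT71 spans several orders of magnitude, and HOXC10 and ZIC1 lie higher on days 19 and 21 than on days 15 and 16.

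The main fibrillar collagen chains rose. Of 22 genes of collagen chains and collagen processing 11 rose and 4 fell, with a median of 0.42. COL1A1, a chain of type I collagen, had 7150, 21000 and 33000 CPM on days 5 to 7 and 26700, 58800 and 76000 CPM late, a 2.82-fold rise (1.5 ± 0.22, adjusted p = 3.55e-06), with excised skin at 11300, 18200 and 44500 CPM. COL3A1, the chain of type III collagen, rose 3.06-fold (1.62 ± 0.23, adjusted p = 1.58e-06). COL11A1, a chain that sets fibril diameter, rose from 0.700, 19.6 and 59.0 CPM to 51.9, 249 and 532 CPM (3.63 ± 0.49, adjusted p = 9.85e-07). The 4 that fell were COL5A3, a minor type V chain (−0.68), the prolyl hydroxylase P4HA1 (−0.45) and the cross-linking oxidases LOXL3 (−0.67) and LOXL4 (−1.11), whereas LOXL1, an oxidase tied to elastic fibers, rose by 0.98. The collagen chaperone SERPINH1 did not pass (0.05, adjusted p = 0.846).

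COL1A1 stood at 35900 ± 12200, 47800 ± 10800, 64500 ± 9950 and 68900 ± 2920 CPM on days 15, 16, 19 and 21 (mean ± SD, n = 3 each). On these days its change was 0.90 (adjusted p = 0.0459), 1.29, 1.76 and 1.85. Over the whole list of 22 genes 3 rose and 5 fell on day 15, where 12.9% of all genes rose and 15.0% fell. On day 16 5 rose and 0 fell (7.7% and 8.43% of all genes), on day 19 12 rose and 1 fell (12.4% and 11.6%), and on day 21 9 rose and 1 fell (12.2% and 13.3%). These late days share the same 18 samples of days 5 to 7, and no gene of this list passed the test of days 19 and 21 against days 15 and 16.

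Of 15 matricellular genes, which code for matrix proteins that signal to cells, 7 rose and 4 fell (median 0.46). POSTN, periostin, rose 5.97-fold from 317, 1080 and 3740 CPM to 3880, 6380 and 14400 CPM with no overlap (2.58 ± 0.29, adjusted p = 6.33e-08), above the 2640, 3400 and 6270 CPM of excised skin in its median. The change over the 4 late days in order was 1.72, 2.21, 2.64 and 3.28, each past the threshold. SPARC, a collagen-binding protein, rose by 1.35 ± 0.19 (adjusted p = 1.67e-06) and CTHRC1, made by activated fibroblasts, by 1.17. THBS1, thrombospondin that activates TGF-beta (−1.64), and CCN1, an early response matrix protein (−1.57), fell. TNC, tenascin of young granulation tissue, changed by −0.65 ± 0.24 (adjusted p = 0.026), a call lost without animal 1323, 1324 or 1328 and without the pair of muscle-rich libraries.

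Genes of mature dermis were also higher, 13 of 20, with 2 lower and a median of 0.97. ELN, the elastin of elastic fibers, went from 24.7, 129 and 358 CPM to 110, 466 and 849 CPM (1.85 ± 0.32, adjusted p = 2.64e-05), against 317, 386 and 757 CPM in excised skin. The highest late values of ELN were on days 15 and 21, and day 19 did not pass by itself (0.92, adjusted p = 0.168). COL14A1, a collagen on the fibril surface, rose by 1.61 ± 0.21, MFAP4, a microfibril protein, by 1.92, and the small proteoglycans DCN and FMOD by 0.92 and 1.29. SFRP2, a secreted regulator of Wnt signaling, fell 7.87-fold, from 301, 572 and 1960 CPM to 36.6, 76.8 and 218 CPM with no overlap (−2.98 ± 0.35, adjusted p = 1.05e-07), while excised skin held 7.44 to 24.8 CPM. Thus SFRP2 remained above every excised skin sample on all late days.

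Proteases and their inhibitors were divided by member. Of 20 tested 5 rose and 9 fell (median −0.51), where 23.2% of all genes rose and 22.7% fell. MMP1, the collagenase of keratinocytes at the wound rim, fell from 28.4, 199 and 915 CPM to 0.534, 2.62 and 93.6 CPM (−3.72 ± 0.73, adjusted p = 0.000123). By day its change was −7.31, −5.17, −1.96 and −6.34 on days 15, 16, 19 and 21, and only day 19 did not pass (adjusted p = 0.0873). On that day animals 1326 and 1327 had 88.8 and 93.6 CPM and animal 1328 1.60 CPM, so the late samples split within 1 day. MMP11, stromelysin-3 of stromal cells, rose from 11.2, 23.2 and 55.8 CPM to 45.3, 113 and 364 CPM (2.51 ± 0.29, adjusted p = 7.77e-08), and MMP14, a membrane-bound collagenase, rose by 1.24 and MMP2, a gelatinase, by 0.86. Inhibitors moved apart: TIMP1 fell by 2.19 (adjusted p = 2e-06) and TIMP2 rose by 1.27. PLAU, the urokinase that starts plasmin, fell by 1.07 ± 0.14 (adjusted p = 6.36e-07).

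The largest rises were in genes of low level on days 5 to 7. Genes were ranked by fold change, and a mean of at least 5 CPM was asked only of the higher period. A low level on days 5 to 7 is thus in part built into this choice and is no separate result. APELA, a peptide ligand of the apelin receptor, went from 0.102, 0.270 and 1.14 CPM to 3.86, 14.4 and 30.3 CPM, a 40.4-fold rise with no overlap (5.34 ± 0.34, adjusted p = 3.18e-12), and excised skin held 0.119 to 1.26 CPM. Its mean was 5.41 ± 2.40, 13.0 ± 3.68, 18.5 ± 7.18 and 24.9 ± 7.45 CPM on days 15, 16, 19 and 21 (SD, n = 3 each). CRABP1, which binds retinoic acid in the cytosol, went from 2.50, 5.54 and 25 CPM to 38.6, 130 and 229 CPM (4.12 ± 0.34, adjusted p = 3.73e-10), above the 6.62 to 34.8 CPM of excised skin in every late sample. LAMA1, a laminin chain of basement membranes (4.08 ± 0.41), and ACAN, aggrecan, a large proteoglycan (3.96 ± 0.39), also rose with no overlap, as did FAM189A1 (4.75 ± 0.46) and NTN3, a netrin guidance protein (3.65 ± 0.42). AOX4, an aldehyde oxidase, rose by 3.67 ± 0.56 with a late range of 0.297 to 30.7 CPM, which overlapped the 0 to 2.47 CPM of days 5 to 7. That all 16 genes with the largest changes had the same sign on each of the 4 late days was a condition of their choice.

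**Figure D4:**
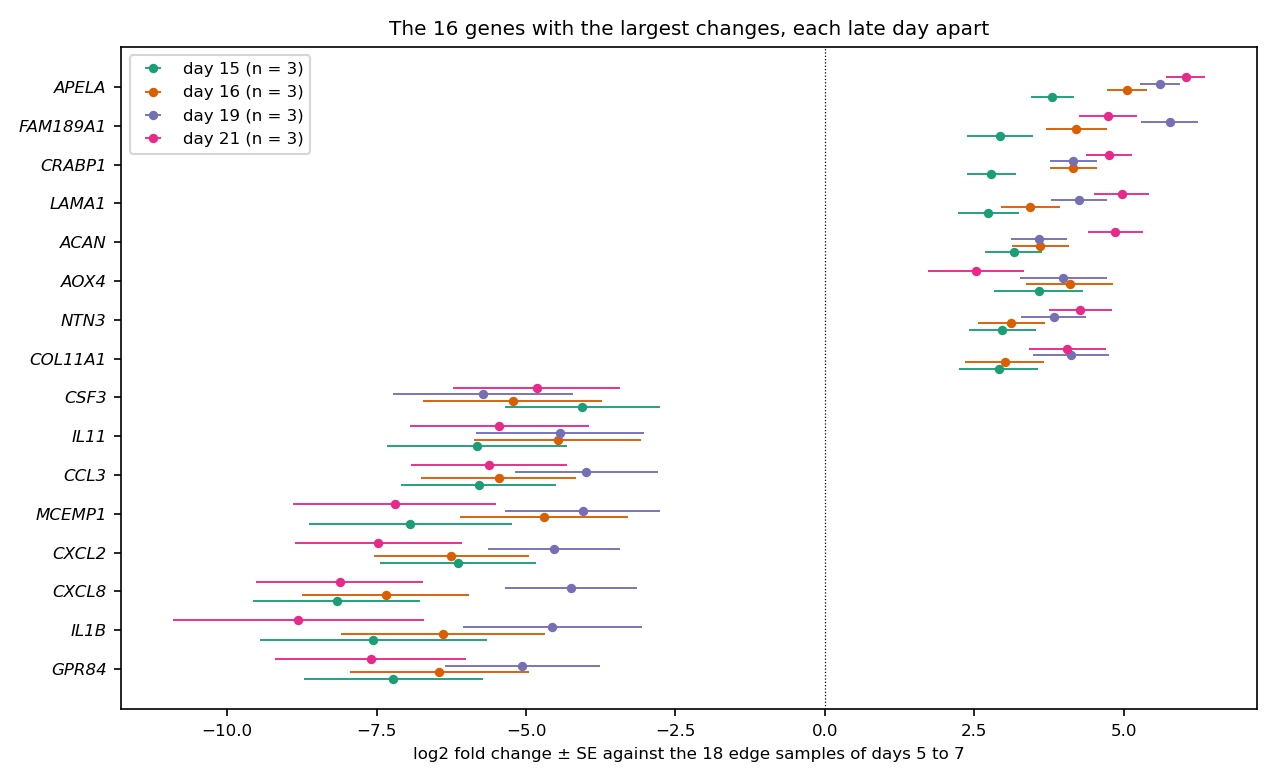
For the 8 genes with the largest rises and the 8 with the largest falls, points show the log2 fold change of each late day (3 samples a day) against the same 18 edge samples of days 5 to 7, with bars of ± 1 standard error. All points of a gene lie on the same side of 0, which their choice required, and for IL1B and CXCL8 day 19 lies nearest to 0, in CXCL8 with −4.25 on day 19 and −8.17 on day 15.

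Endothelial genes were modestly lower, 8 of 18 with none higher (median −0.33), and 16 of 18 without TMM, where 5666 of 14717 genes were lower. PECAM1, the junction protein of endothelial cells, had 251, 359 and 515 CPM on days 5 to 7 and 218, 258 and 317 CPM late (−0.45 ± 0.088, adjusted p = 0.000113), and ENG, a TGF-beta co-receptor of vessels, fell by 0.61 (adjusted p = 0.000281). The pericyte genes NOTCH3, a receptor (0.48 ± 0.094, adjusted p = 0.000133), and RGS5, a regulator of G protein signaling (0.88 ± 0.19, adjusted p = 0.000312), rose. They were the 2 that rose among 14 contractile genes, of which 1 fell. Over all genes 23.2% rose and 22.7% fell, so rises were no more frequent in this list than among all genes. PDGFRB, a pericyte gene of the same list, was not among those that rose. ACTA2, the smooth muscle actin of myofibroblasts, did not pass (−0.23 ± 0.18, adjusted p = 0.304), with 147, 258 and 425 CPM against 129, 187 and 571 CPM; its highest value was in the day 15 sample of animal 1324, and without that sample it did pass (−0.46, adjusted p = 0.0104).

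Of 15 hypoxia and glycolysis genes 8 fell and 2 rose (median −0.57). PGK1, a glycolytic kinase, fell from 292, 353 and 486 CPM to 157, 207 and 229 CPM with no overlap (−0.86 ± 0.079, adjusted p = 2.31e-09), LDHA, which makes lactate, by 1.38 ± 0.17 (adjusted p = 1.53e-07), the lactate exporter SLC16A3 by 1.92 and the vessel growth factor VEGFA by 0.66 (adjusted p = 0.00452). Among 14 immediate early genes, which respond within minutes to stimulation and to tissue handling, 11 fell and 2 rose (median −0.78). FOS fell by 1.41 ± 0.33 (adjusted p = 0.000855), ATF3, a stress factor, by 2.16 and FOSL1, a partner in AP-1 found in migrating keratinocytes, by 2.49 (adjusted p = 4.32e-06), while JUN rose by 0.53.

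Of 21 genes of growth and patterning signals 4 were higher and 8 lower, where 23.2% of all genes rose and 22.7% fell. Rises were thus no more frequent among them than among all genes. GREM1, an antagonist of bone morphogenetic proteins, fell by 2.54 ± 0.40 (adjusted p = 8.64e-06) from a median of 67.5 to 11.3 CPM. WNT5A, a Wnt ligand, fell by 1.09, while AXIN2, a target gene of Wnt signaling, rose by 0.86 ± 0.14 (adjusted p = 9.19e-06) from 8.22, 14.2 and 25.2 CPM to 19.8, 27.8 and 34.1 CPM. TGFB1, the main TGF-beta of wounds, changed by −0.37 (adjusted p = 0.0273), a call lost without animal 1323, 1324 or 1325 and without the day 15 sample of animal 1324 or of animal 1325.

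Skin appendages and subcutaneous tissue varied from sample to sample more than by period. Hair follicle genes had a median change of 1.18, yet only 1 of 16 passed, the transcription factor MSX2 (0.52, adjusted p = 0.012), and that call was lost without TMM (0.33), without animal 1323 (0.47) and without animal 1324 (0.29). KRT71, a keratin of the inner root sheath, had 0 to 1270 CPM on days 5 to 7 and 0 to 2260 CPM late (1.15 ± 1.4, adjusted p = 0.51). The summed level of the list was 21.0 to 7398 CPM late, 15.7 to 4114 CPM on days 5 to 7 and 89.6 to 19840 CPM in excised skin, so the range within each group was wider than the distance between the medians of the late days and of days 5 to 7, 275 and 25.6 CPM. HOXC13, a regulator of hair keratins, did not pass (0.92, adjusted p = 0.0563) but did with the animal as a block (1.13, adjusted p = 0.0147).

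Of 20 genes of lipid synthesis, an activity of sebaceous glands, 4 rose and 1 fell, where 23.2% of all genes rose and 22.7% fell. Rises were thus no more frequent in this list than among all genes. Those that rose included SCD, which makes monounsaturated fatty acids (1.56 ± 0.35, adjusted p = 0.000496), and FASN, fatty acid synthase (1.4 ± 0.24, adjusted p = 2.49e-05). HMGCS1 of the cholesterol pathway did not pass (−0.12, adjusted p = 0.604). No fat cell gene of 11 passed, and ADIPOQ, adiponectin, ranged from 17.8 to 1630 CPM on days 5 to 7 and from 0.798 to 3070 CPM late. PCK1 of glycerol synthesis in fat cells did not pass (−1.39, adjusted p = 0.0838), but did with the animal as a block (−1.73, adjusted p = 0.0403).

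Of 14 skeletal muscle genes 12 were in the table, 5 passed the filter and all 5 were called higher, with a median of 1.99, yet 1 library decided this. Without the day 15 sample of animal 1325 ATP2A1, the calcium pump of muscle, changed by −0.17 instead of 2.75 and TNNI2, a troponin, by 0.13 instead of 1.72, and without both muscle-rich libraries 1 of the 5 was called. ACTA1, the actin of muscle, was not tested and had 1000 CPM in that sample. With the animal as a block none of the 5 was called, and ATP2A1 and TNNI2 were at 1.57 (adjusted p = 0.0808) and 0.97 (adjusted p = 0.105). Without those 2 libraries 6295 genes were called overall. Of 9 tested Schwann cell and nerve genes 5 rose and 1 fell: NCAM1, an adhesion molecule, rose by 1.37 (adjusted p = 8.68e-05), SOX10, the Schwann and pigment cell factor, by 1.15 (adjusted p = 0.0306), and MBP, myelin basic protein, fell by 0.46 (adjusted p = 0.000368). No melanocyte gene of 4 passed, with the pigment transporter SLC45A2 at −0.25 and the receptor GPR143 at 0.18. Of 4 erythrocyte genes the iron transporter SLC25A37 rose (0.39, adjusted p = 0.0132, lost without TMM and without animal 1323, 1324 or 1326), and HBB, a globin chain, did not pass (−0.42, adjusted p = 0.539).

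Each late day was also set by itself against the 18 edge samples of days 5 to 7. With 3 samples a day, the day 15 edge had 1894 genes higher (12.9%) and 2208 lower (15.0%), which is 27.9% in either direction. Day 16 had 1133 higher (7.7%) and 1241 lower (8.43%), or 16.1% in all. Day 19 had 1827 higher (12.4%) and 1701 lower (11.6%), or 24.0%, and day 21 had 1801 higher (12.2%) and 1956 lower (13.3%), or 25.5%. Acute inflammation genes fell in 15, 12, 10 and 17 of 19 cases on days 15, 16, 19 and 21, and epidermal differentiation genes rose in 11, 14, 12 and 10 of 22. KRT10 rose by 0.94 on day 15, by 1.4 on day 16 and by 1.01 on day 21 (adjusted p = 0.0214, 0.00257 and 0.0138), while day 19 at 0.81 did not pass (adjusted p = 0.0511). Day 16 had the fewest genes called. With 1 sample of a day left out, the lowest counts were 2036 on day 15 (without animal 1325), 745 on day 16 (without animal 1326), 1907 on day 19 (without animal 1328) and 1959 on day 21 (without animal 1324).

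Between the later and the earlier late days almost nothing passed. In the test of days 19 and 21 against days 15 and 16, with 6 samples each, 2 of 14501 genes were higher (0.0138%) and none was lower, while 2268 had an unadjusted p below 0.05, DESeq2 called 623 and the fit with the animal as a block called 13. The 2 were HOXC10, a homeobox gene that marks position along the trunk (3.74, adjusted p = 0.0352), and ZIC1, a zinc finger factor of patterning (2.38, adjusted p = 0.0352). HOXC10 had 0.0605 to 0.701 CPM in the samples of wound D and 1.83 to 5.94 CPM in those of wound I, and ZIC1 0.666 to 2.19 CPM and 4.19 to 9.80 CPM. Neither gene overlapped between wounds D and I, and since all samples of days 15 and 16 came from D and all of days 19 and 21 from I, day and wound position cannot be told apart. Leaving out single samples gave from 0 to 263 genes, the highest without the day 21 sample of animal 1323. Without the day 16 sample of animal 1326 the count was 2, without the day 19 sample of animal 1327 it was 3, and without any 1 of the other 9 samples it was 0.

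The late change at the edge differed from that in the center of the same 30 wounds in 1678 of 15387 genes (10.9%), of which 389 were higher at the edge (2.53%) and 1289 lower (8.38%). This fit treated the edge and center biopsies of 1 wound as separate samples. With the wound as a replicate block 2147 genes were called, 659 higher at the edge and 1488 lower. Leaving out each animal gave 1125 to 1720 genes in the fit without the block. Most epidermal genes rose in the center. There 21 of 22 differentiation genes rose with a median of 6.97, and basal genes had a median of 5.46, against 0.97 and −0.20 at the edge. Of all 15387 genes tested in the center 4075 rose and 4340 fell. The edge minus center difference passed the test below 0 for 20 of the 22 differentiation, 14 of 18 activation and 10 of 12 basal genes tested, and above 0 for none. KRT5 in the center went from a median of 24.7 to 3650 CPM (6.54), and the edge minus center difference was −6.88 ± 0.62 on the log2 scale (adjusted p = 1.86e-13). KRT10 in the center rose by 7.01 (difference −5.95 ± 0.80, adjusted p = 2.24e-08) and still had a late median of 1280 CPM there, against 22200 CPM at the edge.

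Cytokines fell in both places, and of 19 genes of acute inflammation 5 differed, all with the lower change at the edge. S100A8 rose in the center by 2.49 (difference −4.05 ± 0.95, adjusted p = 0.00126). CXCL2 fell by 3.07 in the center, from a median of 331 to 32.3 CPM, and the edge minus center difference was −2.63 ± 0.86 (adjusted p = 0.0336), whereas for IL1B, at −4.36 in the center, no difference was found (−1.66 ± 1.10, adjusted p = 0.392). The change of MMP1 in the center was 0.75, where the median was 143 CPM on days 5 to 7 and 128 CPM late (difference −4.46 ± 0.90, adjusted p = 0.00014). CCNB1 fell less in the center than at the edge (−1.22, difference −0.78 ± 0.25, adjusted p = 0.032). COL3A1 rose more at the edge than in the center (0.78 there, difference 0.84 ± 0.28, adjusted p = 0.0403), while for COL1A1 the difference did not pass (0.61 ± 0.27, adjusted p = 0.158). POSTN and CRABP1 rose more in the center, by 4.14 and 6.66, from medians of 147 and 0.322 CPM (differences −1.57 and −2.54, adjusted p = 0.0438 and 0.00375).

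**Figure D5:**
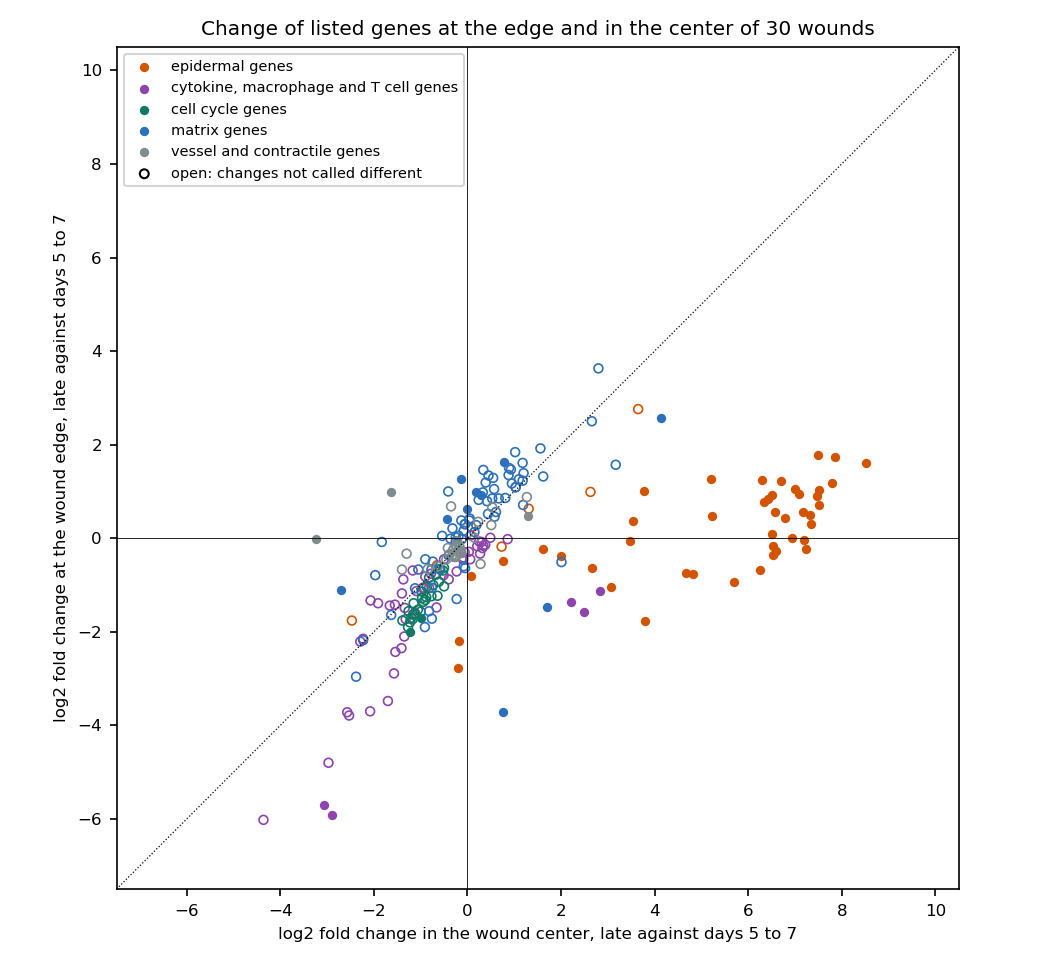
Each point is 1 gene of the epidermal, immune, cell cycle, matrix, vessel and contractile lists, with its log2 fold change in the wound center on the horizontal axis and at the edge on the vertical axis, from 1 fit over 60 samples of 30 wounds; filled points are genes whose changes differed at adjusted p below 0.05, open ones did not, and the dotted line marks equal change. Most epidermal genes lie to the right of the line, such as KRT5 with 6.54 in the center, while TGM3, ITGA5 and DST lie on it or to its left, and cell cycle genes lie below 0 on both axes.

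Because the late days came from both sets of animals, the comparison was repeated within each set. Within animals 1323 to 1325, days 15 and 21 against days 5 and 7, 5646 of 15105 genes were called, 2729 higher and 2917 lower. Within animals 1326 to 1328, days 16 and 19 against day 6, 3187 of 14328 were, 1470 higher and 1717 lower, with 6 late samples in each set and 12 and 6 earlier ones. Cell cycle genes fell 29 of 29 in both sets, acute inflammation genes in 17 and 13 of 19, and differentiation genes rose in 13 and 16 of 22. Over all genes 19.3% and 12% fell in these sets and 18.1% and 10.3% rose. The test of the difference between the sets, added after the values had been seen, called 21 of 14717 genes (0.143%), 16 with a higher change in animals 1326 to 1328 (0.109%) and 5 with a lower one (0.034%). Leaving out each animal gave from 3 (without animal 1324 or 1326) to 82 genes (without animal 1328), and with the animal as a block 43 were called. A call within only 1 set does not show that the sets differ, which is what this last test addresses.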

How the data were processed

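RNA was sequenced from 150 samples, of which the 30 edge samples of days 5, 6, 7, 15, 16, 19 and 21 were compared, with the 30 center samples of the same wounds and 6 excised skin samples beside them. The authors deposited whole-number read counts per gene, not normalized, and these counts were used. Their table of FPKM values was not used. The aligner, the counter, the strand setting and the genome build are not given in the sources used here, so no gene position is printed. Reads of close paralogs and overlapping genes may therefore have been split. Of 30461 genes 12300 took their symbol from the table and 9387, KRT10, FLG2 and GPR84 among them, from the protein named in its description. Where rows shared a symbol, as for CCL3 and CASP14, the one with the highest mean count stood for it.

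Groups came from the sample titles. edgeR 4.0.16 in R 4.3.3 (filterByExpr at its count limits of 10 per library and 15 in total, TMM, quasi-likelihood test, Benjamini-Hochberg adjustment, threshold 0.05) gave every comparison across genes, and it was tested on simulated data. The late days share 1 set of 18 samples in the fits by day. Tables were made with Python 3.11.15, numpy 2.4.6 and pandas 2.3.3, and DESeq2 1.42.0 was an alternative. All edge samples came from 6 animals sampled in both periods, so the animal number pairs them. Deviations from the day means correlated by 0.23 on average within an animal (0.0186 to 0.493) and by −0.115 between animals of the same set. Each day held a single set of animals, so taking off its mean ties the second value to the first with opposite sign. The value between animals is therefore no separate baseline. The fit with the animal as a block is given where it changes a call. The p-values of the unblocked fit treat wounds of 1 animal as separate samples. Other alternatives were the median-of-ratios scaling, the library total alone, no filter, each day as a group, counts summed per animal, each set of animals alone, and leaving out animals or samples.

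The members and the 25 gene lists (457 entries, 424 in the table, 390 tested) were chosen with earlier results of these data known. Named genes were the 8 largest rises and 8 largest falls among called genes with a mean of at least 5 CPM in the higher period and the same sign on each late day and within both sets of animals, the first gene of each list in the table, the 2 of each list with the smallest p, and IL1B and KRT10, in all 87, of which 85 were tested. Single genes beyond these were named after their values had been seen, and the test between sets of animals and the list of clock genes were also added then. Intervals and counts cover only the spread between these samples, and at totals of 14191248 reads or more a level of 1 CPM still rests on few reads.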

Additional observations from a re-analysis of the deposited data

Results flagged for a closer look

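The change of 1678 genes differed between edge and center, and for the named genes among them the values below are the edge change minus the center change on the log2 scale. All had adjusted p below 0.05 in the test of the difference. Epidermal genes led, with KRT6B at −7.46, KRT6C at −7.23, CASP14 at −6.92, KRT5 at −6.88, CDH3 at −6.63, FLG2 at −6.11, KRT10 at −5.95, ALOXE3 at −5.47 and TFAP2A at −4.74. Other genes with a lower change at the edge were MMP1 at −4.46, S100A8 at −4.05, AOX4 at −3.31, CXCL8 at −3.01, CXCL2 at −2.63, AREG at −2.57, CRABP1 at −2.54, HOXC13 at −2.53, FOSL1 at −2.05, HBEGF at −2.01, POSTN at −1.57, HMGCS1 at −1.54, NOTCH3 at −0.82, CCNB1 at −0.78 and AXIN2 at −0.77. A higher change at the edge was found for COL3A1 at 0.84 and for the muscle genes ATP2A1 at 10.44 and TNNI2 at 7.37. For ATP2A1 the center change was −7.67 and the edge change of 2.75 was −0.17 without the day 15 sample of animal 1325, so the size of this difference lies mostly in the center. The TNNI2 change in the center was −5.64, and at the edge 1.72 became 0.13 without that sample.

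The change of 21 genes differed between animals 1326 to 1328 and animals 1323 to 1325, with the named ones KRT6B at 3.82, KRT6C at 3.80, NR1D1 at 2.36, NR1D2 at 2.14, TEF at 1.92, CIART at 1.67 and ARNTL at −1.37 as the first set minus the second.

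Of 100 combinations of list and day with 6 samples, 13 held a sample that Dixon's ratio set far apart from the other 5, and 5, about 1 in 20, would be set apart by chance. The late days have 3 samples each and were not tested. The values are the mean of log2(1 + CPM) over a list. On day 7 animal 1323 lay low for epidermal differentiation (6.935 in wound H, against 8.114 to 8.766 in the other samples), growth signals (4.355 in wound H) and proteases (6.239 in wound E). Animal 1324 lay low on day 5 for contractile genes (6.122 in wound B) and for skeletal muscle (0.5053 in wound K). Hair follicle genes were high in wound E of animal 1325 on day 7 (3.422, against 0.4881 to 0.8511) and in wound B of animal 1326 on day 6 (1.359). Skeletal muscle genes were high in wound K of animal 1328 on day 6 (4.221, against 0.5476 to 1.256), in wound E of animal 1325 on day 7 (1.336) and in the excised skin of animal 1326 (1.303). Erythrocyte genes were high in wound K of animal 1326 on day 6 (2.806), and excised skin lay high in animal 1323 for the cell cycle (4.458) and in animal 1327 for proteases (4.733).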

How the results depend on the processing

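The total of 6758 genes called at the late edge was 3187 within animals 1326 to 1328 and within 1.5 times of the total under the other alternatives: 6809 with median-of-ratios scaling, 7377 with the library total alone, 7057 with DESeq2, 7612 without a filter, 5646 within animals 1323 to 1325, 5493 to 6553 without each animal and 6470 to 6732 without each late sample. With the animal as a replicate block, the pairing that the labels give, 7201 genes were called, and counting each animal once in both periods gave 6589. By day, leaving out single samples gave 2036 to 2874 genes on day 15, 745 to 1591 on day 16, 1907 to 2509 on day 19 and 1959 to 2715 on day 21. With the library total alone day 16 gave 3821 and day 19 5871 genes, and day 19 against the same animals only gave 2028. For days 19 and 21 against days 15 and 16 DESeq2 called 623 genes, the fit with the replicate block 13, and leaving out single samples gave 0 to 263. For the difference between sets of animals DESeq2 called 140, the replicate block 43 and leaving out animals 3 to 82. The cause of these shifts was not tested, except that fewer samples entered the fits that left some out.

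Among named genes over all alternatives 2708 values kept direction and side of the threshold, 96 lost the call, 58 gained one and 8 changed direction. These 8 were MX2 at 0 within animals 1326 to 1328, ATP2A1 at −1.12 within them, −0.27 without animal 1325 and −0.17 without the day 15 sample of animal 1325, TNNI2 at −0.05 within animals 1326 to 1328, and, within animals 1323 to 1325, NR1D2 at −0.83, CIART at −0.49 and ARNTL at 0.52. Without any 1 of the other animals ATP2A1 kept its direction, at up to 3.87. The replicate block changed no call of a named gene other than those given with it above.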

Other observations

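Of the 21 genes whose late change differed between the sets of animals (0.143% of all tested), 5 belong to the circadian clock. They are among 16 clock genes that were listed after these had been seen, so their number supports nothing by itself. Their values are the change in animals 1326 to 1328 minus that in animals 1323 to 1325. NR1D2 and NR1D1, repressors in the clock, had 2.14 ± 0.26 and 2.36 ± 0.41 (adjusted p = 4.97e-05 and 0.00904). CIART, a further repressor, had 1.67 ± 0.29 (adjusted p = 0.00904). ARNTL, the activator that these repressors oppose, had −1.37 ± 0.22 (adjusted p = 0.00341), and TEF, an output factor, 1.92 ± 0.29 (adjusted p = 0.00259). The other 11 did not pass, among them PER1 (1.34, adjusted p = 0.151) and CLOCK (−0.55, adjusted p = 0.0971).

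By day the edge level of NR1D2 was 124 ± 27.8, 70.7 ± 24.1 and 140 ± 13.2 CPM on days 5, 6 and 7 (mean ± SD, n = 6 each) and 68.0 ± 11.7, 171 ± 17.8, 179 ± 58.9 and 77.2 ± 13.2 CPM on days 15, 16, 19 and 21 (n = 3 each). Days 16 and 19 were high and days 6, 15 and 21 low. ARNTL ran the other way, at 19.2 ± 3.63, 24.6 ± 4.36 and 15.5 ± 2.80 CPM on days 5, 6 and 7 and 23.8 ± 2.13, 12.9 ± 2.84, 14.3 ± 5.05 and 25.1 ± 5.70 CPM on days 15, 16, 19 and 21. The time of day of the biopsies is not in the labels, and its part in these values was not tested.

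Over all animals 7 clock genes were higher and 1 lower at the late edge, which is a share of the 16 to be read against 23.2% and 22.7% of all genes tested. HLF, an output factor, rose by 1.13 ± 0.19 (adjusted p = 1.6e-05) and PER2, a repressor, by 0.92 ± 0.18 (adjusted p = 0.00012).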
